A study of Drosophila melanogaster with 66 samples.

Results

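The transcripts described here encode the enzymes that make ecdysone in Drosophila and the nuclear receptors that answer it. They are the genes phm, dib, sad, shd, spo and nvd of hormone synthesis, and EcR, usp and ftz-f1 among the receptors. Members were the probe sets whose gene symbol in the array annotation is 1 of these 9 names. They are 11 probe sets of 18769 that are not controls, and 9 genes of 11981 named ones. The gene phm stands in the annotation under its other symbol phtm and was matched by its gene identifier, because the symbol Phm there belongs to another gene. The genes shd and ftz-f1 have 2 probe sets each, and the probe set of higher mean signal is given first.

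Embryos were wild type, of the Canton S strain, and were compared at 3 ages after egg laying. These are 0-2 hours, when nuclei divide without cells on maternal RNA, 4-6 hours, when the germ band is extended, and 8-10 hours, when organs begin to form. Ages between these periods were not sampled, so an RNA highest in 1 period need not have its maximum there. Extracts treated with EDTA, which takes ribosomes apart by binding magnesium, were set against untreated extracts of the same period. Each period has 1 EDTA gradient with 4 arrays, 2 untreated gradients with 8 arrays (1 for fractions 1-5 together, 1 for every later fraction up to 12) and 2 arrays of unfractionated RNA, 66 arrays in all. Whole embryos were extracted, so more cells that use a gene and more RNA per cell cannot be told apart. Debris had been spun out of the extracts before the gradients.

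Ecdysone is the steroid hormone that times molting and metamorphosis in insects, and a pulse of it also passes through the embryo around the middle of embryogenesis. It is made from dietary sterol in a chain of oxidations. Several of the enzymes are cytochromes P450 encoded by the Halloween genes, whose mutants die as embryos with defects of the cuticle. The hormone binds a heterodimer of the nuclear receptors EcR and Usp, the fly counterpart of the vertebrate RXR, and the occupied receptor switches on a cascade of other transcription factors.

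Array values were log2 values after RMA, which sets the probe signals of all arrays to 1 distribution before they are summarized. Each value is therefore relative to the other RNAs of the same array. Levels of different probe sets were not set against each other. Array medians lay between 4.55 and 5.13, and replicate arrays correlated with r between 0.975 and 0.994 across probe sets. The 2 arrays of unfractionated 0-2 hour RNA were less alike, with r = 0.982, than those of 4-6 hours, with r = 0.991, and those of 8-10 hours, with r = 0.992. The array of EDTA fractions 6-7 at 8-10 hours had the lowest mean correlation with the other arrays, 0.850. The labelled periods were checked on marker genes: 5 of 5 maternal RNAs had fallen by 4-6 hours and 7 of 9 genes of organ formation had risen by 8-10 hours over 0-2 hours, while 0 of 8 yolk, eggshell and seminal fluid genes of the mother passed limma's test of abundance in any comparison (at most 2 of the 8 had an unadjusted p under 0.05). As a measure of background, 95% of 125 probe sets of odorant and gustatory receptor genes lay at or below 4.71, 4.62 and 4.39 over the 3 periods. Of the 8 genes of the mother, 5, 4 and 5 were within this background over the 3 periods, so their lack of calls says little.

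The P450 genes spo, phm, dib and sad of hormone synthesis were high at 4-6 hours and low before and after. The gene spo (spook) encodes a P450 of an early step of the chain. It measured 6.50 and 5.02 at 0-2 hours, 10.02 and 9.53 at 4-6 hours, and 4.71 and 4.57 at 8-10 hours. Both 4-6 hour arrays lay above all arrays of the other periods, and the 8-10 hour arrays were just above the background level of that period.

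The gene phm (phantom) encodes the P450 that hydroxylates the side chain of the sterol next to its end. Its RNA level was 5.68 and 6.31 at 0-2 hours, 9.57 and 9.37 at 4-6 hours, and 5.15 and 5.02 at 8-10 hours. Next, dib (disembodied) encodes a mitochondrial P450 of the following step, and it measured 5.76 and 6.12, then 9.04 and 8.90, then 6.30 and 6.38. The gene sad (shadow) encodes the mitochondrial P450 that yields ecdysone itself, and it measured 5.59 and 5.26, then 7.75 and 7.73, then 5.99 and 6.03. In all 4 genes the groups of arrays at 4-6 hours and at either other period did not overlap. By itself this says little, since 2 arrays against 2 can reach no p below 0.333 in an exact permutation test. The share of all probe sets without such overlap is not given here.

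Between 4-6 hour and 0-2 hour embryos the increase was 4.01 ± 0.48 on the log2 scale for spo (SE, limma, adjusted p = 0.00207), 3.48 ± 0.22 for phm (0.000315), 3.03 ± 0.15 for dib (0.000172) and 2.31 ± 0.14 for sad (0.000284). These are 16.2-fold, 11.1-fold, 8.16-fold and 4.97-fold. All 4 fell again at 8-10 hours. The change from the 4-6 hour level was -5.14 ± 0.48 for spo (adjusted p = 0.00222), -4.39 ± 0.22 for phm (0.000642), -2.63 ± 0.15 for dib (0.000774) and -1.73 ± 0.14 for sad (0.00155). The fall of spo was 35.2-fold and that of sad 3.32-fold. These 8 calls held without any 1 array and in each other setting tried.

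The level at 8-10 hours was not the same in the 4 genes relative to 0-2 hours. At 8-10 hours sad was higher than at 0-2 hours by 0.58 ± 0.14 (adjusted p = 0.0261), phm was lower (log2 change of -0.91 ± 0.22, adjusted p = 0.0278), and dib (0.40 ± 0.15, adjusted p = 0.108) and spo (-1.12 ± 0.48, adjusted p = 0.140) did not pass the test. The calls for phm and sad were lost without any 1 array of 4-6 or 8-10 hours (adjusted p between 0.0618 and 0.143 for phm), and that for sad also after median centring (0.0623) and with a prior variance that followed the mean (0.0557). After quantile normalization of the 6 arrays among themselves the difference of sad was 0.09, with adjusted p = 0.704. Without replicate 2 of the 0-2 hour arrays, spo was lower as well (log2 change of -1.86, adjusted p = 0.0031) and dib was higher by 0.58 (adjusted p = 0.0238), and in the mean signal of the gradients spo was lower too (-1.99, adjusted p = 0.00642).

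**Figure D1:**
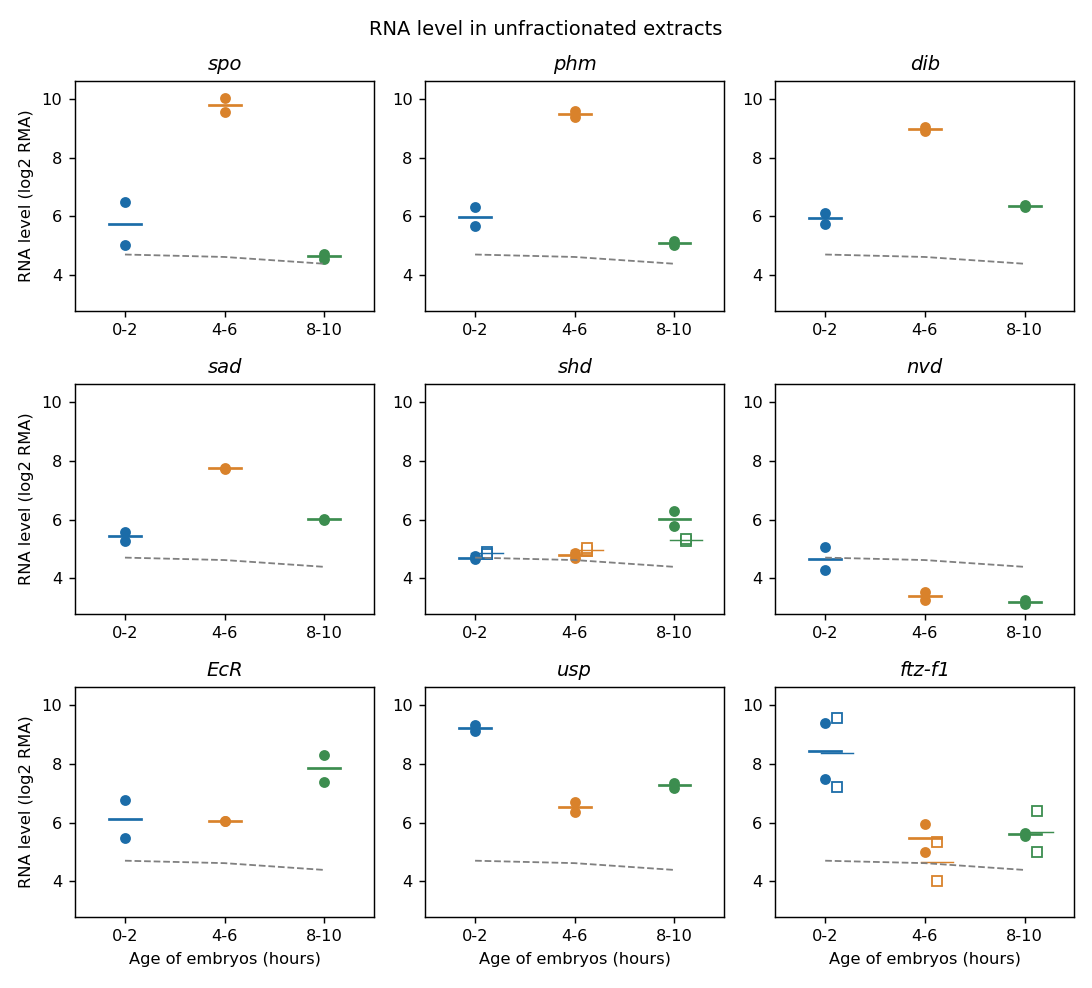
RNA level (log2 RMA) of each member in unfractionated extracts, by age of embryos in hours. Each point is 1 array, bars are the means of 2 arrays, open squares are the second probe sets of shd and ftz-f1, and the dashed line is the background level; spo, phm, dib and sad are highest at 4-6 hours, where spo averages 9.77.

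The last and the first enzyme of the chain did not share that course. The gene shd (shade) encodes the P450 that turns ecdysone into its active hydroxylated form, a step carried out in peripheral tissues in larvae. It measured 4.76 and 4.66 at 0-2 hours, 4.85 and 4.70 at 4-6 hours, and 6.29 and 5.77 at 8-10 hours. Its means of 4.71 and 4.78 in the first 2 periods stood beside background levels of 4.71 and 4.62, and that of 6.03 at 8-10 hours beside 4.39. The increase at 8-10 hours was 1.25 ± 0.19 over 4-6 hours (limma, adjusted p = 0.00974) and 1.32 ± 0.19 over 0-2 hours (0.00377). Its second probe set measured 4.88 and 4.81, then 4.92 and 5.03, then 5.26 and 5.33, with an increase of 0.45 ± 0.11 over 0-2 hours (adjusted p = 0.0259) and of 0.32 ± 0.11 over 4-6 hours, which did not pass (0.107). The call against 4-6 hours was also lost without either 4-6 hour array (adjusted p of 0.0658 and 0.0711).

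The gene nvd (neverland) encodes the oxygenase that starts the chain from cholesterol. It measured 4.28 and 5.06 at 0-2 hours, 3.28 and 3.52 at 4-6 hours, and 3.11 and 3.26 at 8-10 hours. Its mean was within the background range in all 3 periods, and 1 of 6 arrays exceeded it. It was lower at 4-6 hours (log2 change of -1.27 ± 0.27, adjusted p = 0.0174) and at 8-10 hours (-1.49 ± 0.27, adjusted p = 0.00896) than at 0-2 hours. The first call was lost without either 4-6 hour array (adjusted p of 0.117 and 0.0710) and the second without replicate 1 of 8-10 hours (0.0600).

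The receptors followed other courses, with usp and ftz-f1 highest at 0-2 hours and EcR at 8-10 hours. The gene usp (ultraspiracle) measured 9.31 and 9.11 at 0-2 hours, 6.35 and 6.70 at 4-6 hours, and 7.35 and 7.18 at 8-10 hours. Arrays of the 3 periods did not overlap. It fell by 2.68 ± 0.17 at 4-6 hours compared with 0-2 hours (adjusted p = 0.000292), a 6.42-fold difference, and was still lower at 8-10 hours than at 0-2 hours (log2 change of -1.94 ± 0.17, adjusted p = 0.000542). The increase at 8-10 hours over 4-6 hours was 0.74 ± 0.17 (adjusted p = 0.0344). That last call was lost without any 1 array of 4-6 or 8-10 hours, with a prior variance that followed the mean, after quantile normalization and in the mean of the gradients (adjusted p between 0.0510 and 0.178).

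The gene ftz-f1 encodes an orphan nuclear receptor that partners the pair-rule protein Ftz in the early embryo, from RNA laid down by the mother, and later acts as a competence factor between ecdysone pulses. It measured 9.38 and 7.48 at 0-2 hours, 4.99 and 5.94 at 4-6 hours, and 5.65 and 5.56 at 8-10 hours, and its second probe set 9.54 and 7.22, then 4.01 and 5.34, then 5.01 and 6.38. Both 0-2 hour arrays were above all later arrays in both probe sets, and replicate 1 was much the higher. The log2 change at 4-6 hours against 0-2 hours was -2.97 ± 0.64 (adjusted p = 0.0193) and, in the second probe set, -3.71 ± 0.91 (adjusted p = 0.0300). At 8-10 hours against 0-2 hours the changes were -2.82 ± 0.64 (adjusted p = 0.0215) and -2.68 ± 0.91 (0.0771). The calls of the first probe set were lost without either 4-6 hour array for 4-6 hours (adjusted p of 0.128 and 0.0565) and without either 8-10 hour array for 8-10 hours (0.0936 and 0.105).

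The gene EcR encodes the ecdysone receptor itself. It measured 6.77 and 5.48 at 0-2 hours, 6.04 and 6.05 at 4-6 hours, and 8.31 and 7.38 at 8-10 hours. Both 8-10 hour arrays lay above all the earlier ones, and the 4-6 hour arrays lay between the 2 arrays of 0-2 hours. EcR was higher at 8-10 hours than at 0-2 hours by 1.72 ± 0.49, or 3.29-fold (adjusted p = 0.0447), and the difference between 8-10 and 4-6 hours, 1.79 ± 0.49, did not pass (adjusted p = 0.0610). Neither side was firm. The first call was lost after median centring (0.0556) and without any 1 array of 4-6 or 8-10 hours or replicate 2 of 0-2 hours (adjusted p between 0.0557 and 0.204), and the second was gained in 7 settings, among them the mean signal of the gradients (1.30, adjusted p = 0.000435) and leaving out either 0-2 hour array (0.0144). Between 4-6 and 0-2 hours the change was -0.08 ± 0.49 (adjusted p = 0.945).

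Counted by first probe sets, 4 of the 9 genes rose and 3 fell at 4-6 hours over 0-2 hours, against 14.5% of all probe sets called higher and 13.6% called lower. Without either 4-6 hour array 1 fell in place of 3. At 8-10 hours over 4-6 hours 2 rose and 4 fell, against 9.16% and 8.25%, and 0 rose without either 4-6 hour array and 1 without either 8-10 hour array. At 8-10 hours over 0-2 hours 3 rose and 4 fell, against 15.8% and 16.0%, and without 1 array the number called was between 2 and 8. The median change of all probe sets was 0.01, -0.10 and -0.12 in these 3 comparisons, and that of the 9 genes 0.07, -0.21 and -0.91. Of the 9 genes, 8 exceeded the median signal of all probe sets in at least 1 period, and nvd did not.

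Ribosomal occupancy was taken as the part of the signal found in the polysomal fractions 6-12, in percent, and a flat profile gives 58.3%. RNAs near background take about that value, as the odorant and gustatory receptors did with medians of 57.5%, 56.2% and 57.1% over the 3 periods. All probe sets together had medians of 57.4%, 57.2% and 58.0%, after normalization that gave the arrays similar distributions. Occupancy here is thus a position relative to other RNAs and not an absolute share of molecules. In untreated gradients of 4-6 hours spo, phm and dib lay toward the heavy fractions 11 and 12, and sad toward fractions 6 and 7. In 0-2 hour embryos usp and ftz-f1 lay mostly in the light fractions 1-5. The paper states that EDTA could not separate translating complexes from mRNA-protein complexes that hold ribosomes. It had less confidence in ribosomal densities from fractions 6, 7 and 12. Place in the gradient is therefore described here and not read as translation.

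The occupancy of spo was 87.8% and 83.2% in the 2 gradients of 0-2 hours, 84.7% and 82.7% at 4-6 hours, and 74.5% and 76.3% at 8-10 hours. Its mean at 4-6 hours was above that of 98.1% of all probe sets. Over the 3 periods fractions 11 and 12 held 40.0% ± 4.5, 43.3% ± 2.25 and 38.1% ± 7.01 of its signal (SD, n = 2). The Logit, the natural log of the share in fractions 6-12 over that in fractions 1-5, was lower at 8-10 hours than at 0-2 hours (change of -0.67 ± 0.16, limma, adjusted p = 0.00963). That call was lost without gradient replicate 1 of 0-2 hours (adjusted p = 0.0883) and with fractions 6 and 7 counted as non-polysomal (0.210). At 8-10 hours spo measured 3.66 and 4.23 in fractions 1-5, below the background level of 4.39 in unfractionated RNA. Its occupancy at that age, and so the size of this change, is not well determined.

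For phm the occupancy was 77.6% and 73.5%, then 71.0% and 70.2%, then 63.6% and 70.1%. For dib it was 78.3% and 66.9%, then 77.8% and 77.1%, then 74.8% and 80.4%. No change of occupancy of these 2 genes passed the test. With fractions 6 and 7 counted as non-polysomal phm was lower at 8-10 hours than at 0-2 hours (-0.47, adjusted p = 0.0308), as it was without gradient replicate 2 of 8-10 hours (-0.57, adjusted p = 0.0332). In dib the share in fractions 11 and 12 was 38.6% ± 8.99, 49.6% ± 2.67 and 49.1% ± 6.73 over the 3 periods, and in phm it was 34.6% ± 3.69, 34.6% ± 0.76 and 22.4% ± 0.48.

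The profile of sad had another form. Its occupancy was 69.6% and 65.3% at 0-2 hours, 63.4% and 58.8% at 4-6 hours, and 68.0% and 60.9% at 8-10 hours, with no change that passed the test. In both gradients of 4-6 hours its highest polysomal fraction was fraction 6, with 17.2% and 17.3% of the signal. Fractions 6 and 7 held 32.3% ± 1.73 and fractions 11 and 12 held 7.38% ± 0.45, so sad had the smallest share in fractions 11 and 12 of the 4 P450 genes in every 4-6 hour gradient. With fractions 6 and 7 counted as non-polysomal, sad was lower at 4-6 hours than at 0-2 hours (-0.61, adjusted p = 0.0308). Profiles of different genes were not tested against each other.

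**Figure D2:**
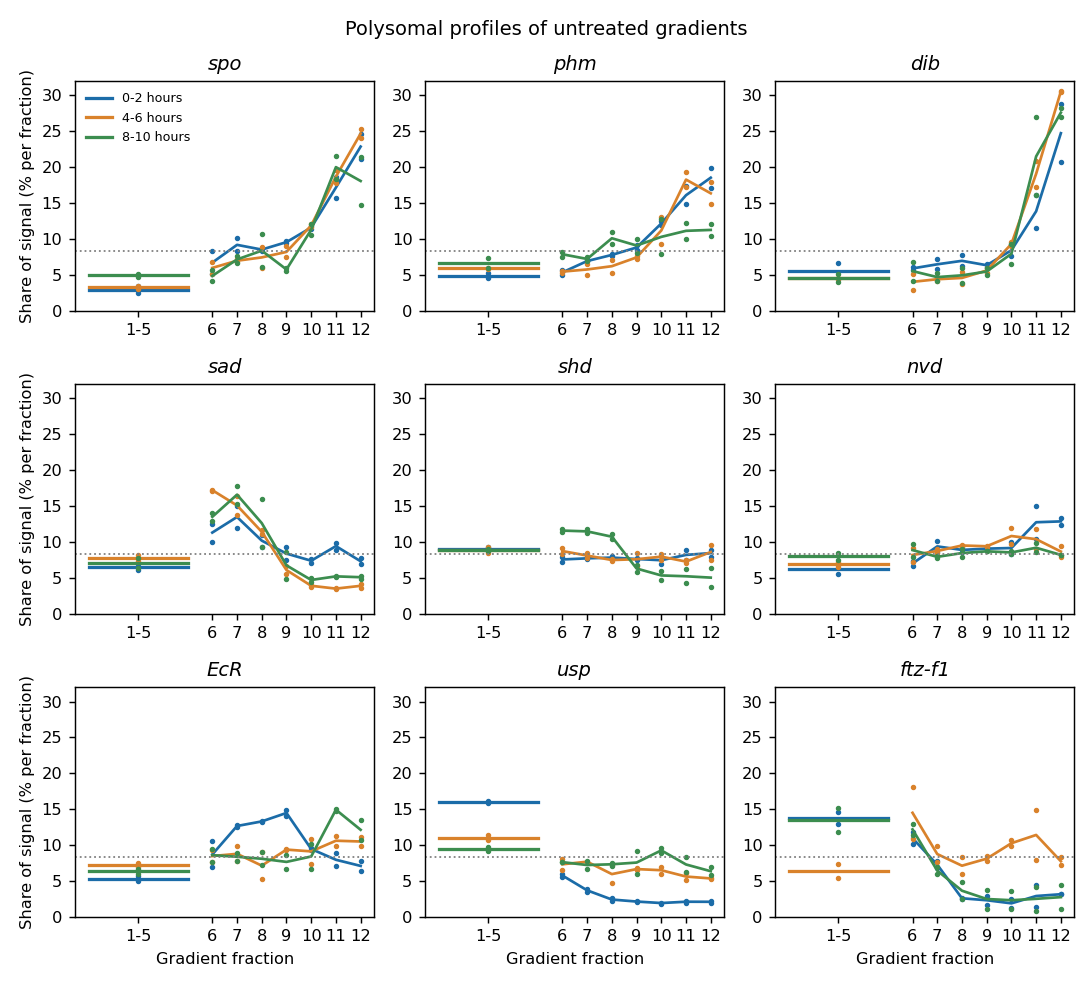
Share of linear signal per gradient fraction (%) for each member in untreated gradients, with the pool of fractions 1-5 drawn as its average per fraction. Points are single gradients, lines are means of 2, colours are the 3 periods and the dotted line is a flat profile; spo, phm and dib lie toward fraction 12 and sad toward fraction 6.

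The occupancy of shd was near or below the value of a flat profile. It was 56.3% and 53.4%, then 57.8% and 53.6%, then 54.9% and 56.4%, and its second probe set had means of 60.7%, 60.7% and 64.2%. At 8-10 hours, where shd was furthest above background, fractions 6 and 7 held 23.1% ± 0.07 of its signal and fractions 11 and 12 held 10.2% ± 3.26. The second probe set of shd was less uneven, with 18.6% ± 3.11 and 16.4% ± 0.97. Its highest polysomal fraction was fraction 8 in both gradients of that age. For nvd, whose level was within the background range, the occupancy averaged 69.1% ± 4.42, 65.7% ± 2.82 and 59.9% ± 3.38 over the 3 periods (SD, 2 gradients each). Both earlier means lay above 95% of the odorant and gustatory receptor probe sets, which reached 61.0% and 60.6%, and the mean at 8-10 hours did not. No change of either gene passed the test, and that of nvd at 8-10 hours over 0-2 hours passed with a prior variance that followed the mean (-0.41, adjusted p = 0.0110).

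Among the receptors usp had an occupancy of 20.6% and 19.6% at 0-2 hours, 46.8% and 43.3% at 4-6 hours, and 51.1% and 54.1% at 8-10 hours. At 0-2 hours only 0.101% of all probe sets had a lower mean. The Logit was higher by 1.18 ± 0.13 at 4-6 hours (adjusted p = 0.000157) and by 1.49 ± 0.13 at 8-10 hours (5.06e-05) than at 0-2 hours, and between 8-10 and 4-6 hours the change of 0.30 ± 0.13 did not pass (adjusted p = 0.322). The occupancy of usp RNA was thus lowest in the period in which its level was highest, and both calls held in each setting tried.

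The first probe set of ftz-f1 had an occupancy of 35.2% and 26.8% at 0-2 hours, 62.9% and 72.8% at 4-6 hours, and 23.9% and 40.7% at 8-10 hours. In the second probe set it was 42.0% and 39.7%, then 83.2% and 84.3%, then 39.9% and 52.0%. The gradients of 4-6 hours lay above all the others in both. The Logit at 4-6 hours was higher than at 0-2 hours by 1.56 ± 0.26 (adjusted p = 0.00153) and, in the second probe set, by 2.01 ± 0.17 (4.74e-05). At 8-10 hours it was lower than at 4-6 hours, with changes of -1.52 ± 0.26 (0.0168) and -1.80 ± 0.17 (0.00271). For the first probe set that fall was not called without either gradient of 4-6 hours, without replicate 1 of 8-10 hours, or with fractions 6 and 7 counted as non-polysomal (adjusted p between 0.0539 and 0.215).

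The 2 probe sets of ftz-f1 lay differently in the gradient at 4-6 hours. The first had its highest polysomal share in fraction 6, with 19.1% ± 4.09 in fractions 11 and 12. The second had it in fraction 11, with 39.5% ± 1.60 in fractions 11 and 12. The RNA level at 4-6 hours was low in both, and 1 of the 2 unfractionated arrays was within background for the second. In gradient replicate 1 the first probe set measured 4.38 in fractions 1-5 and between 4.44 and 4.93 in later fractions. The background level of unfractionated RNA was 4.62 at that age. The occupancy of the first probe set in that gradient, 62.9%, was near the 58.3% of a flat profile. Its highest fraction and the size of its changes in Logit are therefore not well determined.

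For EcR the occupancy was 71.8% and 75.4% at 0-2 hours, 62.4% and 65.5% at 4-6 hours, and 66.4% and 69.9% at 8-10 hours. Its Logit was lower at 4-6 hours than at 0-2 hours (change of -0.45 ± 0.14, adjusted p = 0.0386), and the other changes did not pass. This call was lost in 7 settings (adjusted p between 0.0602 and 0.248), which included leaving out any 1 gradient of 0-2 or 4-6 hours and median centring. The highest polysomal fraction of EcR was fraction 9 in both 0-2 hour gradients and fraction 11 in all 4 later ones. Its share in fractions 11 and 12 was 15.0% ± 0.37, 21.1% ± 1.91 and 27.0% ± 2.09 over the 3 periods, and no gradient of 1 period overlapped with another. These shares were not tested.

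**Figure D3:**
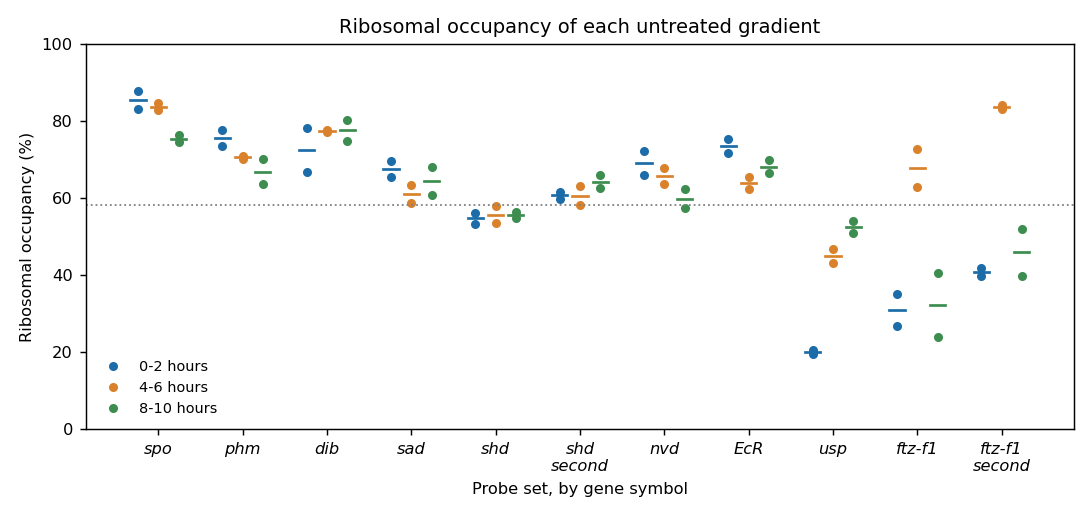
Ribosomal occupancy (%) of each member probe set in each untreated gradient, by period. Each point is 1 gradient, bars are means of 2 and the dotted line is the 58.3% of a flat profile; usp is lowest at 0-2 hours, with a mean of 20.1%, and ftz-f1 is highest at 4-6 hours.

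In occupancy 2 of the 9 genes rose and 1 fell at 4-6 hours over 0-2 hours, against 14.1% of all probe sets called higher and 10.8% called lower. At 8-10 hours over 4-6 hours 0 rose and 1 fell, against 1.68% and 1.25%. At 8-10 hours over 0-2 hours 1 rose and 1 fell, against 15.9% and 11.4%. The median change in Logit of the 9 genes was -0.15, 0.00 and -0.13 in these comparisons, and that of all probe sets -0.03, 0.03 and 0.01.

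EDTA releases mRNA from ribosomes, so an mRNA held in polysomes should move to the top of the gradient. Each period has 1 EDTA array, which was assumed to vary as the untreated arrays do. At 4-6 hours spo measured 10.12 in fractions 1-5 of the EDTA gradient, against 6.85 and 7.93 in the untreated gradients, a difference of 2.73 ± 0.42 (adjusted p = 0.00812). For phm the values were 9.75 with EDTA, against 8.16 and 8.58 untreated (1.38 ± 0.24, adjusted p = 0.0124), and for dib 9.06 with EDTA, against 7.24 and 7.53 untreated (1.68 ± 0.27, adjusted p = 0.00980). In all 3 genes the value on the EDTA array lay above both untreated values. Without replicate 1 of the untreated 4-6 hour arrays the calls for phm (adjusted p = 0.0757) and dib (0.0760) were lost.

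At 8-10 hours dib rose again, with 6.98 with EDTA, against 5.14 and 5.56 untreated (1.63 ± 0.27, adjusted p = 0.0120). The differences of spo (1.02 ± 0.42, adjusted p = 0.208) and phm (0.63 ± 0.24, 0.170) did not pass, and at 0-2 hours those of spo, phm and dib were -0.15, 0.25 and -0.17 with adjusted p of at least 0.867. For sad the 4-6 hour value was 7.39 with EDTA, against 8.57 and 8.43 untreated, and this difference of -1.10 ± 0.31 did not pass (adjusted p = 0.0695). It passed without either untreated array of 8-10 hours (0.0115).

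Shares of signal were also taken over 4 pools of fractions with equal weight. An RNA spread over the pools as the average RNA is has about 25% in each, because normalization gave the arrays similar, though not identical, distributions. The shares thus give position relative to other RNAs. At 4-6 hours fractions 10-12 held 28.7% of spo with EDTA, against 48.8% and 53.8% untreated. They held 19.3% of phm with EDTA, against 43.8% and 47.3% untreated, and 24.0% of dib with EDTA, against 55.9% and 61.7% untreated. For sad, fractions 6-7 held 22.7% with EDTA, against 45.2% and 43.4% untreated, and fractions 10-12 held 22.3% with EDTA, against 10.3% and 10.3% untreated. Each of these EDTA shares was closer to 25% than its untreated values. At 0-2 hours fractions 10-12 held 34.8% of spo with EDTA, against 48.8% and 44.0% untreated, and 28.5% of phm with EDTA, against 47.3% and 42.1% untreated. EcR and usp did not show this at 4-6 hours. Fractions 10-12 then held 41.7% of EcR with EDTA, against 26.4% and 32.6% untreated. They held 33.9% of usp with EDTA, against 18.6% and 19.4% untreated. At 0-2 hours both were closer to 25% with EDTA. Fractions 1-5 held 26.8% of usp with EDTA, against 63.1% and 64.8% untreated. Fractions 8-9 held 25.8% of EcR with EDTA, against 37.4% and 35.7% untreated. For the first probe set of ftz-f1, fractions 6-7 were further from 25%, with 39.3% with EDTA, against 33.8% and 31.2% untreated. In its second probe set fractions 6-7 held 29.1% with EDTA, against 26.1% and 22.7% untreated. Fractions 1-5 of that probe set were closer to 25%, with 20.1% with EDTA, against 39.3% and 41.9% untreated. The approach to 25% was thus not limited to the synthesis genes. These shares rest on 1 EDTA gradient and were not tested. Pool shares at 8-10 hours are not given, because the array of EDTA fractions 6-7 stood apart there.

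No rise in fractions 1-5 with EDTA passed the test for the receptors. In fractions 1-5 of 0-2 hours the first probe set of ftz-f1 measured 7.94 with EDTA, against 10.84 and 12.12 untreated, and so was lower with EDTA (change of -3.54 ± 0.70, adjusted p = 0.0312). The second probe set measured 9.82 with EDTA, against 9.98 and 9.90 untreated, a change of -0.12 ± 0.45 (adjusted p = 0.993). The call of the first was lost without replicate 2 of the untreated 0-2 hour arrays (adjusted p = 0.179) and without either untreated array of 4-6 hours (0.0749), and with the replicate number as a block (0.112). At 8-10 hours its values were 5.61 with EDTA, against 8.73 and 7.15 untreated (-2.33 ± 0.70, adjusted p = 0.0865), and this passed in 3 other settings (adjusted p between 0.0181 and 0.0456).

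For usp the values at 0-2 hours were 9.34 with EDTA, against 10.05 and 9.78 untreated (-0.57 ± 0.22, adjusted p = 0.253), and those of EcR were 6.12 with EDTA, against 6.12 and 5.83 untreated (0.14 ± 0.22, adjusted p = 0.968). No effect of EDTA on usp, EcR, shd or nvd passed the test in any period. With a prior variance that followed the mean, nvd was higher with EDTA at 0-2 hours (0.78, adjusted p = 0.0164).

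**Figure D4:**
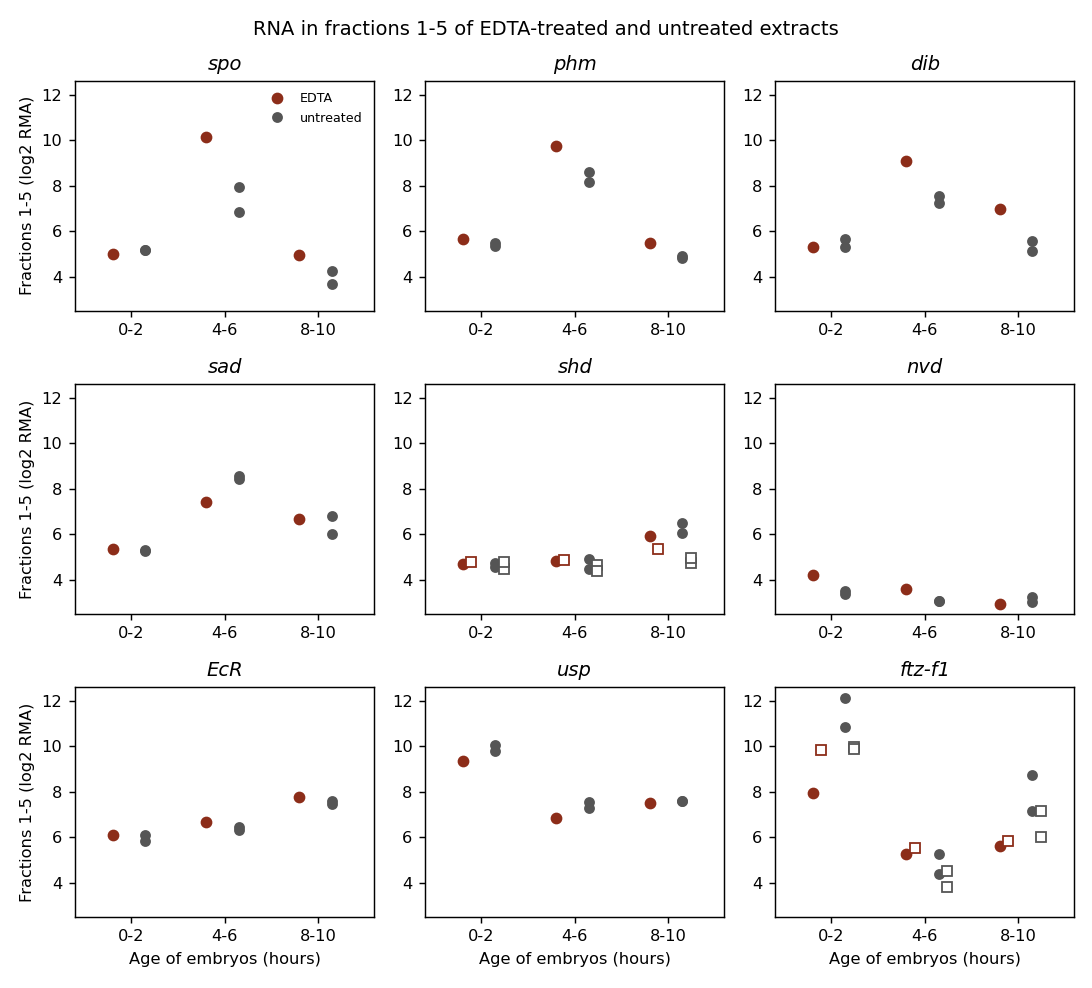
RNA in fractions 1-5 (log2 RMA) of EDTA-treated extracts, left, and untreated extracts, right, by age of embryos in hours. Each point is 1 array and open squares are second probe sets; at 4-6 hours spo, phm and dib are higher with EDTA than in both untreated gradients, and at 0-2 hours the first probe set of ftz-f1 is lower.

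Of the 9 genes, 0 were higher and 1 was lower with EDTA at 0-2 hours, against 3.29% and 1.12% of all probe sets. At 4-6 hours 3 were higher and 0 lower, against 6.84% and 1.97%, and at 8-10 hours 1 was higher and 0 lower, against 6.95% and 1.85%. When the effects of EDTA in 2 periods were tested against each other with limma, 0 of the 9 genes passed in any of the 3 comparisons. An unadjusted p under 0.05 was found for 5 of the 9 between 4-6 and 0-2 hours, for 4 between 8-10 and 4-6 hours and for 2 between 8-10 and 0-2 hours. The share of all probe sets that passed was 0.0% between 4-6 and 0-2 hours, 0.0% between 8-10 and 4-6 hours and 0.687% between 8-10 and 0-2 hours, and 2328, 956 and 2572 probe sets had an unadjusted p under 0.05. The largest differences of EDTA effects between 4-6 and 0-2 hours were 3.97 ± 0.99 for ftz-f1 (adjusted p = 0.127), 2.88 ± 0.59 for spo (0.0880) and 1.84 ± 0.38 for dib (0.0906).

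Other genes of hormone supply were read from a list of names, and 11 of them had a probe set. Between 4-6 and 0-2 hours 4 of the 11 rose and 0 fell, against 14.5% of all probe sets called higher and 13.6% called lower, and between 8-10 and 4-6 hours 2 rose and 3 fell, against 9.16% and 8.25%. The gene sro (shroud), which encodes a short-chain dehydrogenase of the Halloween group, averaged 4.81, 6.90 and 4.48 over the 3 periods. It rose by 2.09 at 4-6 hours over 0-2 hours (adjusted p = 0.00089) and fell by 2.42 at 8-10 hours over 4-6 hours (0.00155), with an occupancy of 69.5% at 4-6 hours. The gene spok, a close relative of spo used in the larval ring gland, averaged between 2.77 and 3.0 and so stayed within background. Npc1a, which moves sterol out of endosomes, rose by 1.27 at 4-6 hours over 0-2 hours (adjusted p = 0.000643) and by 0.62 more at 8-10 hours (0.014). The transcription factor gene vvl was within background at 0-2 hours, with a measured rise of 1.90 at 4-6 hours (0.00884), and rose by 3.81 at 8-10 hours over 4-6 hours (0.00196).

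Of breakdown and uptake, 3 genes were measured. Oatp74D, which encodes the importer of ecdysone into cells, averaged 3.75, 7.22 and 8.13. It rose by 3.47 at 4-6 hours over 0-2 hours (adjusted p = 0.000145) and by 0.91 at 8-10 hours over 4-6 hours (0.0161), and its occupancy was 55.8% and 50.5% in the last 2 periods. At 0-2 hours its RNA was within background, so the size of the first rise is not well determined. Cyp18a1, which inactivates the hormone, averaged 5.55, 5.69 and 6.24, and neither it nor Eo passed an abundance test.

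Of 15 genes named in the field for their induction by ecdysone, 2 rose and 3 fell at 4-6 hours over 0-2 hours, against 14.5% and 13.6% of all probe sets, and 7 rose and 0 fell at 8-10 hours over 4-6 hours, against 9.16% and 8.25%. The median change of the list in the second comparison was 0.97, against -0.10 over all probe sets. The largest measured differences were those of Kr-h1, a zinc finger gene better known for juvenile hormone signalling, which averaged 8.21 at 8-10 hours and 4.42 at 4-6 hours (3.79, adjusted p = 0.00681), ImpE1, with 7.50 and 4.76 (2.74, adjusted p = 0.0046), Hr39, with 8.50 and 6.14 (2.36, adjusted p = 0.002), and the nuclear receptor gene Hr4, with 6.80 and 4.46 (2.34, adjusted p = 0.00172). At 4-6 hours Kr-h1 and Hr4 were within background, so the sizes of these 2 differences and their order are not well determined. Hr3, a nuclear receptor of the early-late class, measured 4.21 at 8-10 hours, within background, and 2.87 at 4-6 hours. The genes br and Eip93F averaged no more than 4.62 in any period and did not pass.

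The ecdysone-inducible genes ImpE2 and ImpL2 had risen earlier, by 4.70 (adjusted p = 0.000198) and 4.80 (6.85e-05) at 4-6 hours over 0-2 hours, and their changes at 8-10 hours over 4-6 hours, -0.25 and -0.39, did not pass. E23, which encodes an ABC transporter, fell by 4.14 at 4-6 hours compared with 0-2 hours (adjusted p = 0.0111). Its occupancy was 20.4% at 0-2 hours. At 4-6 hours E23 was within background, so neither the size of its fall nor its occupancy there is well determined. The Logit of Hr39 rose by 1.59 at 4-6 hours over 0-2 hours (0.0002). Over the 15 genes 5 Logits were called higher and 1 lower in that comparison, against 14.1% and 10.8% of all probe sets.

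**Figure D5:**
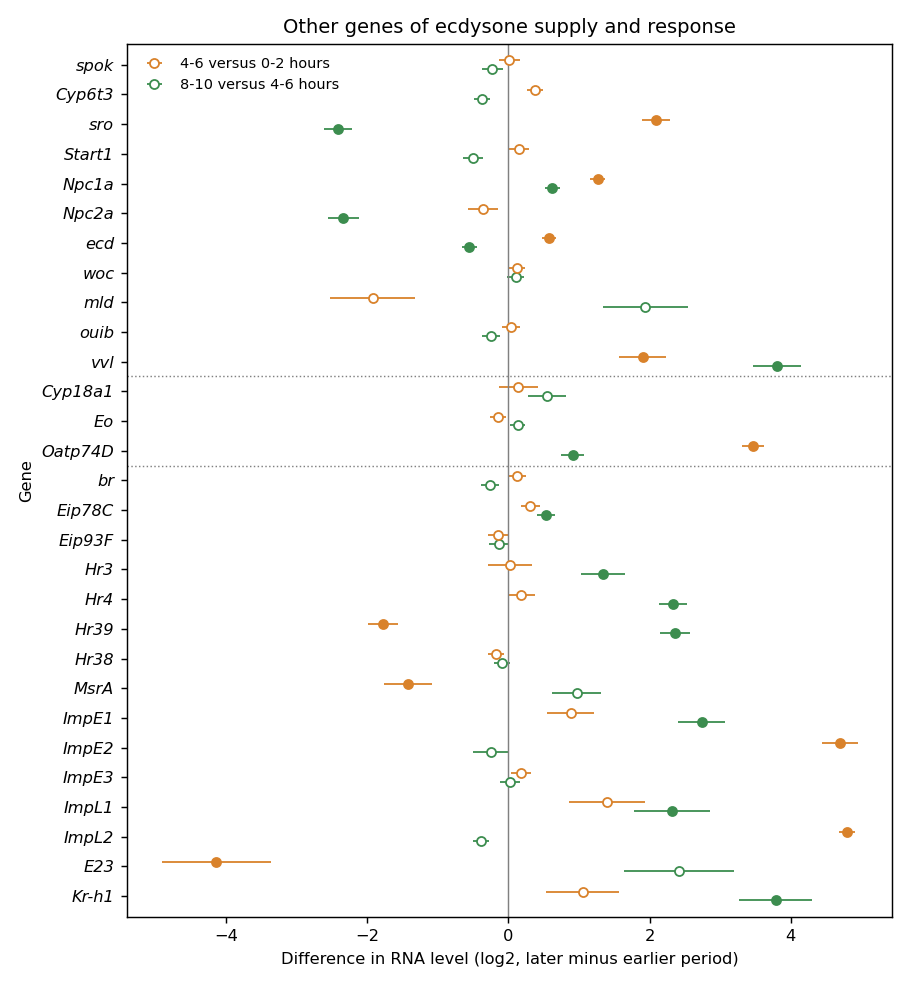
Difference in RNA level (log2, later minus earlier period) of other genes of synthesis and supply (top), breakdown and uptake (middle) and ecdysone response (bottom). Points are limma estimates with their SE, filled where the adjusted p is below 0.05; 7 of the 15 response genes are filled on the right at 8-10 versus 4-6 hours, and MsrA is the current symbol of Eip71CD.

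Of 12 partners and co-regulators of these receptors, 5 rose and 1 fell at 4-6 hours over 0-2 hours, against 14.5% and 13.6% of all probe sets, and 1 rose and 2 fell at 8-10 hours over 4-6 hours, against 9.16% and 8.25%. The pair-rule gene ftz, whose protein binds Ftz-f1, averaged 5.16, 7.65 and 6.25. Of the 3 periods it was highest at 4-6 hours, when ftz-f1 RNA was low. It rose by 2.49 at 4-6 hours over 0-2 hours (adjusted p = 0.00104) and fell by 1.40 at 8-10 hours over 4-6 hours (0.0154). The coactivator gene tai (taiman) averaged 5.28, 5.37 and 6.67, a rise of 1.30 at 8-10 hours over 4-6 hours (0.0299), and its Logit was higher by 1.06 at 4-6 hours than at 0-2 hours (0.0153). Over the 12 genes 2 Logits were called higher and 4 lower in that comparison, against 14.1% and 10.8% of all probe sets. The gene rig (rigor mortis), a cofactor of nuclear receptors, fell by 3.0 at 4-6 hours compared with 0-2 hours (0.00127).

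Of 12 other nuclear receptor genes, 4 rose and 4 fell at 4-6 hours over 0-2 hours, against 14.5% and 13.6% of all probe sets, and 4 rose and 0 fell at 8-10 hours over 4-6 hours, against 9.16% and 8.25%. Hnf4, Hr78 and Hr96 fell at 4-6 hours compared with 0-2 hours (log2 changes of -4.71, -3.46 and -3.21, adjusted p of 0.00109, 0.00146 and 0.000194). Their occupancies at 0-2 hours were 22.2%, 29.6% and 24.0%, between the means of usp (20.1%) and ftz-f1 (31.0%), and all 3 Logits were higher at 4-6 hours than at 0-2 hours (1.76, 0.77 and 0.77, with adjusted p of 5.4e-05, 0.0055 and 0.00157). The list as a whole did not go this way. Over the 12 genes 4 Logits were called higher and 3 lower, against 14.1% and 10.8% of all probe sets, and the median change was -0.16.

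Genes with the most similar values were sought by Pearson correlation over the 54 arrays without EDTA, given as a description, since these arrays share gradients and periods. The closest to phm were Sr-CII (r = 0.951), CG14204 (0.943) and spo (0.939), and phm was the closest to spo. Sr-CII encodes a scavenger receptor and averaged 6.65, 11.6 and 7.33 over the 3 periods. Among the members dib followed phm with r = 0.847 and spo with r = 0.816, and sad followed phm with 0.579. The closest to sad were CG10405 (0.954), CG32679 (0.938) and upd1 (0.927), and the closest to dib were CG13096 (0.939), Brd8 (0.925) and Cdc5 (0.918).

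For the other members the likeness ran to other genes. The closest to usp were POSH (0.929), CG11737 (0.918) and CG7745 (0.914), and to ftz-f1 Sarm (0.944), M7BP (0.927) and l(1)G0196 (0.924). The closest to shd were Lim3 (0.963), CG14968 (0.960) and lbl (0.951), and to EcR CG33093 (0.840), sr (0.836) and CG5849 (0.835). The closest to nvd was bcd (0.877), the maternal anterior determinant. EcR and usp, whose proteins form the receptor, had r = -0.141 with each other over these arrays.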

How the data were processed

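All RNA was hybridized to the Affymetrix GeneChip for the Drosophila genome, second version. The deposited values are log2 values that the authors made by RMA (background correction, quantile normalization, probe summary); per the methods equal volumes of RNA were labelled for the gradient fractions and a fixed mass for unfractionated RNA, and quantile normalization then removes differences in total mRNA between arrays. Depth does not apply to arrays, and their number limits the precision. Linear signals gave occupancy and Logit per gradient, with the pool of fractions 1-5 counted 5 times. The tests used limma 3.58.1 (R 4.3.3) over all 18769 probe sets: unfractionated arrays (6), Logits of untreated gradients (6), and fractions 1-5 for EDTA (9 arrays), with Benjamini-Hochberg adjustment and a threshold of 0.05; the script was tested on simulated data. An exact permutation test of 2 against 2 arrays can reach no p below 0.333. The methods call the 2 gradients of a period independent replicates. The members are all named; other pathway genes were counted by list and named, up to 4 of largest change, where a test passed, and a few others were named after their values were seen. The members and lists were chosen with earlier results of these data known. Each gene was shown by its probe set of highest mean signal. Probe sets of spo and EcR match several transcripts. Alternatives were a filter on signal, a prior variance that follows the mean, the replicate block, other centring and normalization, other pool weights and fractions, leaving out each array or gradient, and second probe sets. Listed genes with no probe set of 1 symbol, such as Eip74EF, Eip75B, crol and dare, were not analysed here, nor were sequences.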

Additional observations from a re-analysis of the deposited data

How the results depend on the processing

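Of 927 values of single genes recomputed under other settings, 0 called values changed direction, and 37 values that did not pass in either setting changed sign, the largest of them 0.57 in size. In abundance 35 calls were lost and 10 gained of 327, in occupancy 13 and 4 of 327, and with EDTA 7 and 6 of 273. The replicate numbers were not treated as pairs in the main fits. Deviations of same-numbered arrays correlated with r = 0.10, 0.21 and 0.50 in unfractionated RNA and with -0.06, -0.18 and -0.14 in the Logits. The 0.50, between 4-6 and 8-10 hours, is not small, so a shared replicate effect cannot be set aside there. With the replicate block limma called 3515 probe sets in that abundance comparison in place of 3268, EcR among them (1.79, adjusted p = 0.0178). With the replicate block the 9 genes gave 0 calls with EDTA at 0-2 hours in place of 1, no other count of the 9 moved by over 1.5 times, and over all probe sets the EDTA calls were 241, 827 and 636 in place of 829, 1652 and 1652. With fractions 6 and 7 counted as non-polysomal 0 genes changed occupancy between 8-10 and 4-6 hours in place of 1. With a prior variance that follows the mean 2 genes responded to EDTA at 0-2 hours and 2 at 8-10 hours, and with the filter on signal 2 at 8-10 hours, in place of 1 each. Without 1 array or gradient at a time, the lone array being assumed to vary like the others, the genes called numbered 5 to 7 (4-6 against 0-2 hours), 4 to 7 (8-10 against 4-6) and 2 to 8 (8-10 against 0-2) in abundance, 2 to 3, 0 to 1 and 1 to 3 in occupancy, and 0 to 1, 1 to 4 and 1 to 2 with EDTA over the 3 periods. Over all probe sets the occupancy calls between 8-10 and 4-6 hours then numbered 1 to 504, against 550 with every gradient, and the EDTA calls 160 to 1389, 201 to 2256 and 912 to 2087; abundance calls between 8-10 and 4-6 hours numbered 1256 to 4737, against 3268. With 2 arrays per group and 1 EDTA array, calls near the threshold depend on single arrays, and values near background have little range for a fall.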
